A study of Rattus with 6 samples.

Results

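Nrip2, Ipcef1, Ifitm10, Bin2 and Ripor3 are 5 genes with little-known roles in the pituitary whose transcripts were far more abundant in aspirin-treated than in solvent-treated cells of a rat pituitary line. They were chosen by name for that large difference, from the same libraries described here, so their own differences between the groups are a description and carry no test. They are 5 of the 12801 genes in the deposited table, and their 26 exon rows are 26 of 118147. Polyadenylated RNA of RC-4B/C, an established line from a rat pituitary adenoma, was sequenced in 3 libraries of cells given acetylsalicylic acid (aspirin, ASA), an inhibitor of the cyclooxygenases, and in 3 libraries of control cells given dimethyl sulfoxide (DMSO). The labels name no genotype, transgene or other agent for either group. Neither a dose nor a duration is stated in them, and nothing says that the 3 libraries of a group are separate cultures, so p-values measure only the spread between libraries, which may be technical. GH3, another pituitary line named by the series, was not analysed here.

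The 5 proteins belong to unrelated families. NRIP2 is a nuclear receptor interacting protein, described first in mouse as a partner of hormone-bound retinoic acid and thyroid hormone receptors. IPCEF1 binds the cytohesins, exchange factors that load the small GTPase ARF6 with GTP, and so acts on membrane traffic and the cell edge. IFITM10 is a little-studied member of the family of interferon-induced transmembrane proteins, whose best-known members hinder the entry of viruses into cells. BIN2 is a BAR domain protein, one of a class that binds and bends membranes, and is known mainly from white blood cells. RIPOR3 is the least studied of the RIPOR proteins, whose relatives bind and restrain the small GTPase RhoA.

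The libraries held 66492445 to 92073423 reads in the listed exons in the ASA group and 82189699 to 94486062 in the DMSO group. The lactotroph transcripts Prl and Pou1f1 were present in all 6, with Prl between 14040 and 62170 reads for each kilobase of a gene's listed exons and each 1000000 reads of the library (RPKM), and 15 of 21 pituitary endocrine markers had rows. ASA replicate 2 stood apart from the other libraries. The exons of a gene scattered in it by a median of 0.604 on the log2 scale, against 0.142 and 0.143 in the other ASA libraries and 0.129 to 0.132 in the DMSO libraries. It also had 497 exons with no reads, against 4 to 13 in the other libraries, and 5.44% of its reads were mitochondrial, against 2.65% to 3.22%. Where leaving it out changed a call of a gene named below, the value without it is given.

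Nrip2 was the most abundant of the 5 genes in either group. It had 109.6, 101.5 and 174.4 RPKM in ASA replicates 1, 2 and 3, against 4.33, 11.9 and 4.72 RPKM in DMSO replicates 1, 2 and 3. Every ASA library was above every DMSO library, and the lowest ASA value was 8.52 times the highest DMSO value. The means were 128.5 ± 40.0 RPKM in ASA and 6.99 ± 4.27 RPKM in DMSO libraries (SD, n = 3 each). From the means of log2(RPKM + 0.1), the scale used for all differences here, Nrip2 was 19.6-fold higher with ASA, a difference of 4.30 that ranked 2 among the 12502 tested genes, those averaging 0.5 RPKM or more. DMSO replicate 2 was the high library of its group.

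Ipcef1 followed the same order of libraries within the DMSO group. It had 20.3, 34.6 and 48.1 RPKM in ASA replicates 1, 2 and 3, against 1.51, 3.01 and 2.08 RPKM in DMSO replicates 1, 2 and 3. The groups did not overlap, and ASA replicate 1 was the lowest of the treated libraries. Ipcef1 averaged 34.4 ± 13.9 RPKM in ASA and 2.20 ± 0.755 RPKM in DMSO libraries (SD, n = 3 each), a log2 difference of 3.87 or 14.6-fold.

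Ifitm10 had the lowest mean of the 5 in both groups and the smallest spread over the ASA libraries. Its levels were 16.6, 14.6 and 15.9 RPKM in ASA replicates 1, 2 and 3, and 1.47, 0.407 and 1.21 RPKM in DMSO replicates 1, 2 and 3. The SD of its log2 level over the ASA libraries was 0.0924, and 4.28% of the genes had a smaller one. The untreated level was less even, with DMSO replicate 2 the low library, in contrast to Nrip2 and Ipcef1, and its 21 reads there are the thinnest support of any value of the 5 genes. Means were 15.7 ± 1.001 RPKM in ASA and 1.03 ± 0.554 RPKM in DMSO libraries (SD, n = 3 each), a log2 difference of 3.96 or 15.5-fold. With a pseudocount of 1 in place of 0.1 the difference was 3.08, or 8.45-fold.

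Bin2 was uneven among the treated libraries. It had 6.69, 43.6 and 46.8 RPKM in ASA replicates 1, 2 and 3, against 1.32, 1.49 and 3.06 RPKM in DMSO replicates 1, 2 and 3. ASA replicate 1 lay only 2.18 times above the highest DMSO library, while the other treated libraries were far above it. Bin2 averaged 32.4 ± 22.3 RPKM in ASA and 1.96 ± 0.960 RPKM in DMSO libraries (SD, n = 3 each), a log2 difference of 3.64 or 12.5-fold. Without ASA replicate 1 it was 23.5-fold higher with ASA.

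Ripor3 was uneven in the same way. Its levels were 3.77, 42.4 and 28.1 RPKM in ASA replicates 1, 2 and 3, and 1.13, 2.17 and 1.22 RPKM in DMSO replicates 1, 2 and 3. The gap between the groups was the narrowest of the 5 genes, with the lowest ASA value 1.73 times the highest DMSO value. Ripor3 averaged 24.7 ± 19.5 RPKM in ASA and 1.51 ± 0.580 RPKM in DMSO libraries (SD, n = 3 each), a log2 difference of 3.43 or 10.8-fold. Leaving out ASA replicate 1 gave 22.4-fold, and leaving out ASA replicate 2, in which it was highest, gave 6.76-fold.

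**Figure D1:**
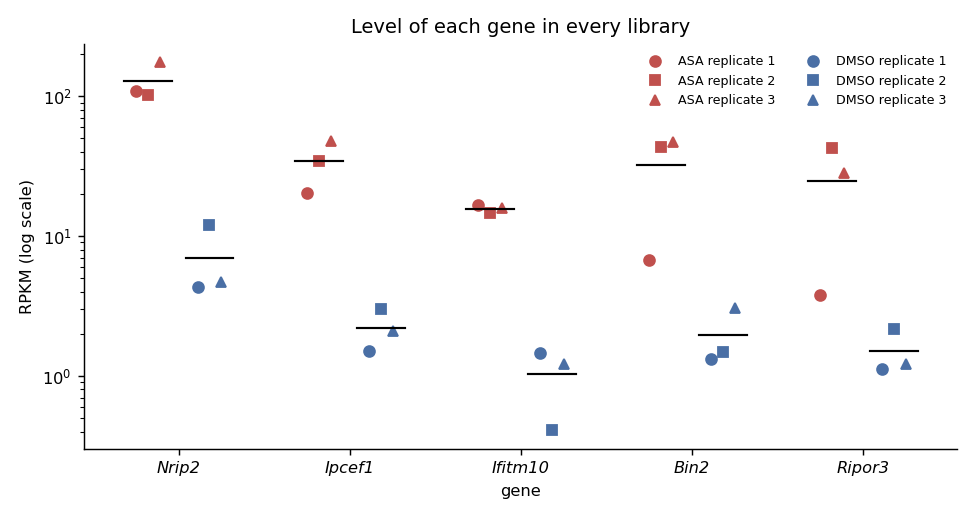
Level of each gene in RPKM (log axis) in the 3 ASA libraries (left of each pair) and the 3 DMSO libraries (right), 1 point per library, with black bars at the group means. Nrip2 lies highest in both groups, the ASA points of Ifitm10 lie within 14.6 to 16.6, and ASA replicate 1 is the low treated library of Bin2 and Ripor3.

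All 5 genes were thus free of overlap between the groups, which the choice of the genes fixes; of all tested genes, 19.9% had every ASA library above every DMSO library. The order of mean levels was the same in both groups, Nrip2 before Ipcef1, Bin2, Ripor3 and Ifitm10. Nrip2 stood clear of Ipcef1 in both groups. The values of each later pair of neighbours in that order overlapped in both, so their order is not resolved. All 5 were lowly expressed without the drug, with 4.01% (Ifitm10) to 24.3% (Nrip2) of tested genes below their DMSO mean. Under ASA 40.9% (Ifitm10) to 90.3% (Nrip2) of genes were below them. In bulk RNA a change in the number of cells with a transcript and a change in the amount per cell cannot be told apart.

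The spread among treated libraries separated the genes. The SD of the log2 level over the 3 ASA libraries was 1.85 for Ripor3 and 1.58 for Bin2, with 99.0% and 98.0% of tested genes below them. It was 0.626 for Ipcef1 and 0.422 for Nrip2, and the median over all tested genes was 0.414. Over the DMSO libraries the 5 SDs lay between 0.474 (Ipcef1) and 0.875 (Ifitm10), and the median of all genes was 0.182. These SDs rest on 3 libraries each and are given as a description.

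**Figure D2:**
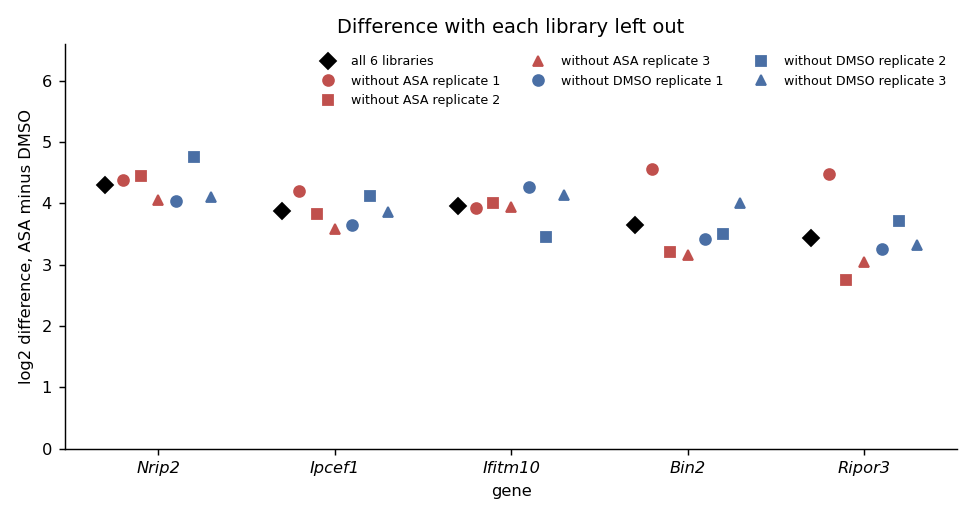
Difference between the ASA and DMSO means of log2(RPKM + 0.1) for each gene, with all 6 libraries (black diamond) and with each library left out in turn. The values of Nrip2 lie between 4.04 and 4.76 and those of Ripor3 between 2.76 and 4.48.

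The exons of each gene moved together. In all 26 listed exons every ASA library was above every DMSO library, as in 17.3% of all exons listed. The choice of the genes favours this outcome too, because these exons make up the gene values, so it is a description. Nrip2, on the plus strand of chromosome 4 (161720501 to 161729189, Rnor_6.0, ENSRNOG00000042939), had all 7 of the exons counted in its row names. Their log2 differences ran from 3.91 (exon 4) to 4.57 (exon 7, the last). In ASA replicate 2 the profile along Nrip2 was tilted. Its exon 7 had 136.9 RPKM and its exon 4 had 48.7 RPKM, whereas exon 7 was below exon 4 in each of the other 5 libraries (72.3 and 113.3 RPKM in ASA replicate 1, for example). Exon 4 of Nrip2 held 395 reads in ASA replicate 2.

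Ipcef1, on the minus strand of chromosome 1 (43567999 to 43637381, ENSRNOG00000018163), had all 8 exons, with log2 differences from 3.23 (exon 1) to 4.20 (exon 5). Exon 1, which is 159 bases long, had 7.79, 7.95 and 20.3 RPKM in ASA replicates 1, 2 and 3, against 1.06, 1.61 and 0.684 RPKM in DMSO replicates 1, 2 and 3. It was the lowest exon of the gene in all 3 ASA libraries and all 3 DMSO libraries.

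The other genes were only partly covered. In every row of the table at least 4 of the 6 libraries had more than 10 reads, so exons too thin in the untreated cells can lack a row. The coordinates given for Ripor3, Ifitm10 and Bin2 span their listed exons only, not the whole gene. Ripor3, on the minus strand of chromosome 3 (164718084 to 164728148, ENSRNOG00000010791), had 7 of 16 exons, numbers 1, 3 to 7 and 13 from the 5′ end, with log2 differences from 2.98 (exon 13) to 3.81 (exon 3). Exon 13 was the only one listed from the 3′ part of the gene, with 1.18, 5.93 and 8.35 RPKM in ASA replicates 1, 2 and 3 and 0.0521, 1.08 and 0.643 RPKM in DMSO replicates 1, 2 and 3. The value in DMSO replicate 1 was a single read.

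Ifitm10, on the minus strand of chromosome 1 (215522066 to 215536980, ENSRNOG00000020164), had the first 2 of its 4 exons, with log2 differences of 3.98 and 3.91. Bin2, on the minus strand of chromosome 7 (142274194 to 142279089, ENSRNOG00000031930), had the last 2 of 11, so its level describes 760 bases at the 3′ end and no more of the transcript. The larger of these, 730 bases long, had 5.83, 38.5 and 41.3 RPKM in ASA replicates 1, 2 and 3, against 1.17, 1.35 and 2.82 RPKM in DMSO replicates 1, 2 and 3. The other, of 30 bases, stood several times higher per base in every library, between 27.5 and 181.2 RPKM in ASA and between 4.87 and 9.06 RPKM in DMSO libraries. The pattern over libraries was alike in both exons, with log2 differences of 3.59 and 3.95.

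**Figure D3:**
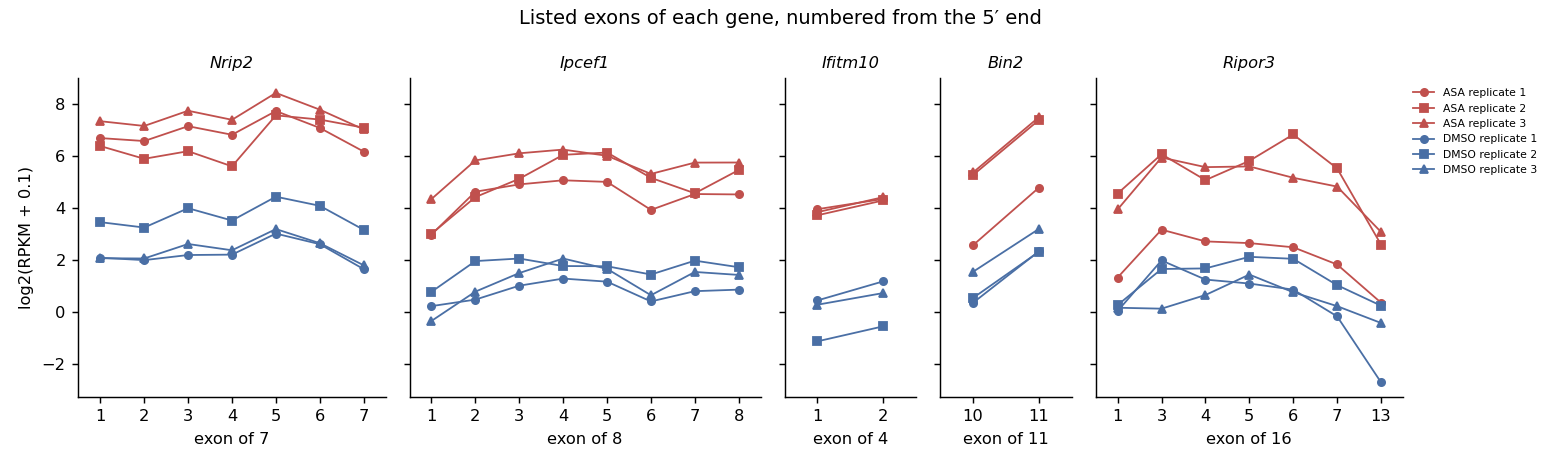
Level of each listed exon, as log2(RPKM + 0.1), in the 3 ASA (red) and 3 DMSO (blue) libraries, with exons numbered from the 5′ end. The red lines lie above the blue lines in all 26 exons, and Bin2, Ifitm10 and Ripor3 have rows for only 2 of 11, 2 of 4 and 7 of 16 exons.

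No exon of another gene in the table overlapped an exon of the 5 genes. How reads were assigned to strands is not given in the sources used here, so reads from an unlisted antisense transcript cannot be told apart from theirs. The nearest tested genes on each side were used to see whether a wider region moved. Distances run between listed exons, so the gap from a partly covered gene can be smaller than stated. These neighbours were tested with limma on log2(RPKM + 0.1) over all 12502 genes, with Benjamini-Hochberg adjustment at 0.05, under which 11.2% of genes were called, 6.21% higher and 4.99% lower with ASA. Of the 10 neighbours, 1 passed. Smagp, a small transmembrane adhesion protein gene 13.9 kb from Bin2 on the same strand, had 330.3, 688.7 and 415.2 RPKM in ASA replicates 1, 2 and 3, against 200.5, 131.5 and 229.4 RPKM in DMSO replicates 1, 2 and 3. The groups did not overlap (2.50-fold, log2 difference 1.32 ± 0.32 SE, limma adjusted p = 0.0425, from 0.0296 to 0.132 with single libraries left out). The call of Smagp was also lost with median-ratio scaling (adjusted p = 0.0579), with no mean-variance trend (0.0601) and with the median exon (0.0641).

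The neighbours of Nrip2 had lower means in the ASA libraries, and Tex52 lay at the threshold. Tex52 averaged 4.21 ± 2.12 RPKM in ASA and 20.1 ± 12.4 RPKM in DMSO libraries (limma adjusted p = 0.0507), and Itfg2, which lies 2.26 kb beyond Nrip2 on the opposite strand, averaged 9.69 ± 2.64 and 16.8 ± 3.65 RPKM in ASA and DMSO libraries (adjusted p = 0.113). Tex52 passed with a pseudocount of 1 (limma adjusted p = 0.0485), with median-ratio scaling (0.0404), with library quality weights (0.00149), without ASA replicate 1 (0.0397) and without DMSO replicate 2 (0.0408). Ctsd, the gene of the lysosomal protease cathepsin D, lies 5.25 kb from Ifitm10 on the same strand. It averaged 1269 ± 263.3 RPKM in ASA and 809.8 ± 70.8 RPKM in DMSO libraries, a log2 difference of 0.63 ± 0.22 SE (limma adjusted p = 0.103). Ptpn1, 6.57 kb from Ripor3, had a log2 difference of -0.40, and Pard6b, on the other side, one of 0.75 (limma adjusted p = 0.128 and 0.112). Both passed without ASA replicate 2, at -0.44 and 0.83 (limma adjusted p = 0.0422 and 0.0486). Oprm1, Scaf8, Dusp8 and Galnt6 had adjusted p-values of 0.355 to 0.949.

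The families and partners of each protein were then examined in gene lists. For Nrip2 the list held nuclear receptors, coregulators, the other NRIP genes and Ddi2, a protease gene outside these classes. Of 19 tested genes 2 rose, Ddi2 among them, and 1 fell, 15.8% of the list against 11.2% of all tested genes. The median log2 difference was 0.36, against -0.06 over all. With so few genes called, the share rests in part on Ddi2. Nrip3, the closest relative in name, had 61.0, 76.3 and 69.9 RPKM in ASA replicates 1, 2 and 3, against 46.3, 32.8 and 38.7 RPKM in DMSO replicates 1, 2 and 3. It rose 1.77-fold (limma adjusted p = 0.042), with no overlap between the groups. The call of Nrip3 held in 2 of the 6 leave-outs (adjusted p = 0.0341 to 0.185), and was lost with no mean-variance trend (0.062), with voom (0.0513) and with the median exon (0.0592). Nrip1, a corepressor of many nuclear receptors, averaged close to its DMSO level, with a log2 difference of 0.20 ± 0.21 SE (limma adjusted p = 0.561).

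Esr1, the estrogen receptor alpha gene, fell 2.55-fold, to 41.9 ± 7.48 RPKM in ASA against 107.2 ± 22.3 RPKM in DMSO libraries (SD, n = 3 each, limma adjusted p = 0.0189). Ddi2, which encodes an aspartic protease, rose 2.28-fold (limma adjusted p = 0.0349). Of the receptors known to bind NRIP2 in mouse, Thrb had 45.2, 9.24 and 40.1 RPKM in ASA replicates 1, 2 and 3, against 103.3, 73.2 and 112.4 RPKM in DMSO replicates 1, 2 and 3. Every ASA library was below every DMSO library, and the test did not pass (log2 difference -1.88 ± 0.57 SE, adjusted p = 0.0705). Without ASA replicate 2, its lowest library, Thrb passed at -1.15 (limma adjusted p = 0.017). Thra, Rara and Rarg had log2 differences of 0.81, 0.19 and 0.23 (limma adjusted p = 0.102, 0.582 and 0.523), and without that library Rarg passed at 0.47 (adjusted p = 0.0385).

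For Ipcef1 the list held cytohesins, ARF GTPases and other regulators of ARF6. Of 22 tested genes 5 rose and none fell, 22.7% of the list against 6.21% of all tested genes called higher, with a median log2 difference of 0.22. The 5 did not include a cytohesin or Arf6 itself. Cyth2, the most abundant of the cytohesin genes, had 186.4, 143.8 and 158.3 RPKM in ASA replicates 1, 2 and 3, against 218.2, 150.8 and 181.6 RPKM in DMSO replicates 1, 2 and 3. These values overlapped (limma adjusted p = 0.609). Cyth1 and Cyth3 had log2 differences of -0.54 and -0.76 and Arf6 one of 0.23 (limma adjusted p = 0.244, 0.371 and 0.351).

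Among the genes that rose were regulators that act on ARF GTPases from both sides. Git1, a scaffold that stimulates GTP hydrolysis by ARF6, rose 2.44-fold, to 151.3 ± 21.2 RPKM in ASA against 61.6 ± 2.72 RPKM in DMSO libraries (SD, n = 3 each, limma adjusted p = 0.0135). Psd, an exchange factor for ARF6, rose 2.69-fold (19.1 ± 1.49 RPKM in ASA and 7.03 ± 0.533 RPKM in DMSO libraries, limma adjusted p = 0.0156). Adap1, which also promotes GTP hydrolysis by ARF6, rose 5.04-fold and Cnksr2, a scaffold of the plasma membrane, 2.47-fold (limma adjusted p = 0.0349 and 0.0371). The fifth, Iqsec2, another ARF exchange factor, rose 1.76-fold (limma adjusted p = 0.0492) and was named after its values were seen, to complete the count. The call of Iqsec2 was lost with a pseudocount of 1 (limma adjusted p = 0.0512), with no filter (0.0528) and with the median exon (0.141). With single libraries left out, it held only without ASA replicate 2. When ASA replicate 2 was left out, 7 genes of this list passed, and when ASA replicate 3, DMSO replicate 1 or DMSO replicate 3 was left out, none did.

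Close relatives of Ifitm10 were lower with ASA. Ifitm1 had 22.5, 27.2 and 11.0 RPKM in ASA replicates 1, 2 and 3, against 59.6, 51.5 and 52.8 RPKM in DMSO replicates 1, 2 and 3. Ifitm2, the most abundant of them, had 406.1, 437.2 and 253.6 RPKM in ASA replicates 1, 2 and 3, against 769.5, 827.4 and 883.4 RPKM in DMSO replicates 1, 2 and 3. All ASA libraries were below all DMSO libraries for both genes, with ASA replicate 3 the lowest. Ifitm1 fell 2.87-fold and Ifitm2 2.32-fold (limma adjusted p = 0.034 and 0.0284). Both calls held in 2 of the 6 leave-outs, without ASA replicate 1 and without ASA replicate 2. In the other leave-outs they were lost, with limma adjusted p up to 0.143 for Ifitm1 and 0.145 for Ifitm2. Ifitm3 averaged 7.62 ± 3.36 RPKM in ASA and 15.1 ± 1.64 RPKM in DMSO libraries, a log2 difference of -1.06 ± 0.33 SE that missed the threshold (adjusted p = 0.0784). Without ASA replicate 2 Ifitm3 passed at -1.39 (limma adjusted p = 0.0103). The coding sequences of these 3 paralogs are much alike. All their values were whole reads, but how reads that match more than 1 of them were treated is not given in the sources used here, so each value is uncertain.

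Of the 9 tested genes of the IFITM and related dispanin families 2 fell and none rose, 22.2% of the list against 4.99% of all tested genes called lower, with a median log2 difference of -0.63. Prrt2, a dispanin of nerve endings, had a log2 difference of 0.98 ± 0.33 SE (limma adjusted p = 0.0904). Of 20 tested interferon-induced genes 1 rose, a share below the 6.21% of all tested genes called higher, with a median of -0.03. That gene was Gbp2, a guanylate-binding protein of interferon-treated cells, with 26.6 ± 9.67 RPKM in ASA and 10.4 ± 1.45 RPKM in DMSO libraries (2.43-fold, limma adjusted p = 0.0474). Its call held only without ASA replicate 2 when single libraries were left out, with limma adjusted p-values of 0.00711 to 0.183.

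For Bin2 the list held genes of BAR domain proteins and dynamins. Its nearest relatives had small differences. Bin1, the widely expressed amphiphysin-like gene, had 44.8, 52.5 and 52.0 RPKM in ASA replicates 1, 2 and 3, against 28.6, 42.4 and 36.4 RPKM in DMSO replicates 1, 2 and 3. Its groups did not overlap, but the test did not pass (log2 difference 0.49 ± 0.21 SE, adjusted p = 0.16). Bin3 and Amph had log2 differences of 0.11 and 0.12 (limma adjusted p = 0.733 and 0.847).

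Of 26 tested genes of that list 4 rose and none fell, 15.4% of the list against 6.21% of all tested genes called higher, with a median log2 difference of 0.12. Snx33, a sorting nexin with a BAR domain that binds dynamin, rose 2.78-fold, to 45.0 ± 8.21 RPKM in ASA against 16.0 ± 1.16 RPKM in DMSO libraries (SD, n = 3 each, limma adjusted p = 0.0148). Its relative Snx18 rose 1.96-fold (limma adjusted p = 0.0458). Sh3gl2, which encodes endophilin A1 of synaptic vesicle recycling, rose 2.66-fold and Trip10, an F-BAR partner of the GTPase Cdc42, 1.80-fold (limma adjusted p = 0.0321 and 0.0357). For Trip10, 21.6% of exon values were fractions of a read. The median exon in place of the summed exons left 2 of the 4 calls, and those of Snx18 and Trip10 were lost (limma adjusted p = 0.0786 and 0.108). Trip10 was also lost with no mean-variance trend (limma adjusted p = 0.0553). With single libraries left out, the calls of Snx18 and Trip10 held only without ASA replicate 2. Those of Snx33 and Sh3gl2 held in 3 and 2 of the 6 leave-outs.

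Neither Ripor1 nor Ripor2, the relatives of Ripor3, passed the test over all 6 libraries. Ripor1, known for the placing of the Golgi apparatus in migrating cells, had 57.0, 39.8 and 52.9 RPKM in ASA replicates 1, 2 and 3, against 30.4 to 36.6 RPKM in the DMSO libraries. All ASA libraries were above all DMSO libraries, and the test did not pass (log2 difference 0.60 ± 0.21 SE, adjusted p = 0.0994). Without ASA replicate 2 Ripor1 passed at 0.75 (limma adjusted p = 0.0202). Ripor2, an inhibitor of RhoA in neutrophils and hair cells, had a log2 difference of -0.61 ± 0.34 SE (limma adjusted p = 0.267), with 9.11, 9.58 and 11.8 RPKM in ASA and 9.44, 19.3 and 20.1 RPKM in DMSO replicates 1, 2 and 3. Rhoa, Rhob and Rhoc had log2 differences of -0.22, -0.52 and 0.07 (limma adjusted p = 0.529, 0.642 and 0.891). The value of Rhob turned on ASA replicate 2, which had 14.5 RPKM against 120.1 and 86.5 in the other ASA libraries. Without that library its difference was 0.41 (adjusted p = 0.127).

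**Figure D4:**
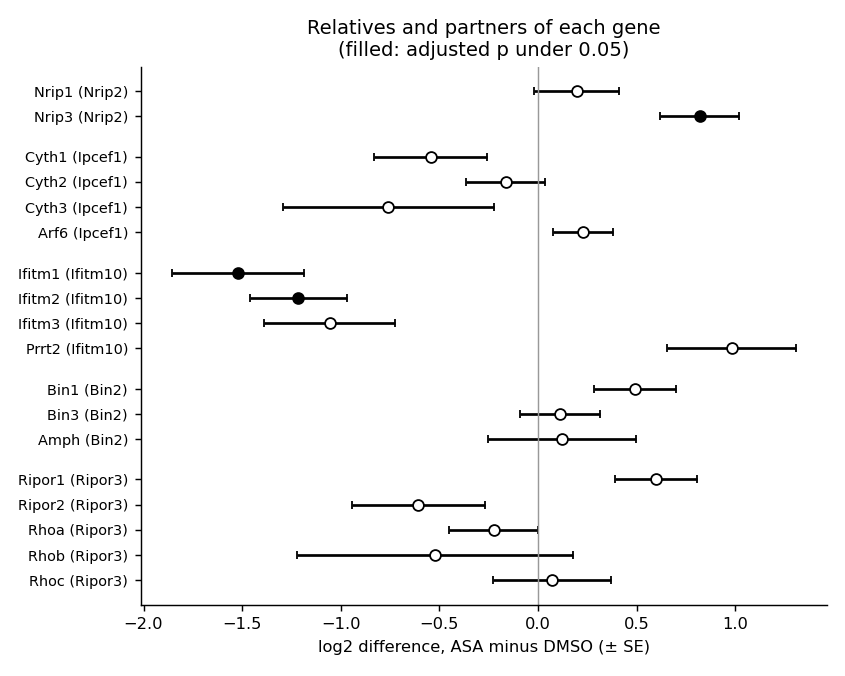
Difference between the ASA and DMSO means of log2(RPKM + 0.1), with its standard error, for the closest relatives and partners of each gene (named in brackets), n = 3 libraries per group. Of the 18 genes shown, Nrip3 lies above 0 and Ifitm1 and Ifitm2 below 0 past the limma threshold over all 6 libraries (filled); the others did not pass.

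Over all genes, limma called 0 when ASA replicate 3 was left out (smallest adjusted p = 0.0803, with 2926 genes at an unadjusted p under 0.05) and 0 when DMSO replicate 3 was (0.079, with 2345 such genes), so no call of a relative held there.

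The genes whose pattern over libraries was most like each of the 5 were found by the root mean square difference, over the 6 libraries, between log2 levels taken relative to each gene's own DMSO mean. The 12092 other genes averaging 1 RPKM or more were compared. Nrip2 was nearest to Ipcef1, at 0.460, and next to Trib3, a pseudokinase gene induced by cell stress, at 0.573 and the transporter gene Slc16a14 at 0.708. Trib3 had 409.5, 226.8 and 553.1 RPKM in ASA replicates 1, 2 and 3, against 13.2, 81.7 and 20.4 RPKM in DMSO replicates 1, 2 and 3. As for Nrip2, ASA replicate 3 was the highest treated library and DMSO replicate 2 the highest control.

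Ipcef1 was nearest to the unnamed gene AABR07062033.1, at 0.338, then to Nrip2 and to Atf3, a stress-induced transcription factor gene, at 0.533. Ifitm10 had a single close match, the leukocyte integrin gene Itgax at 0.381, with 21.4, 26.9 and 33.1 RPKM in ASA replicates 1, 2 and 3, against 2.102, 0.955 and 1.30 RPKM in DMSO replicates 1, 2 and 3. DMSO replicate 2 was the lowest library of both. The next genes, Ipcef1 and the neurotrophic factor gene Artn, lay at 0.864 and 0.928.

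Bin2 was nearest to AABR07062033.1 at 0.565, the lysosomal channel gene Mcoln3 at 0.572 and Ripor3 at 0.590. Ripor3 was nearest to Ddit3, at 0.4, which encodes the stress-induced transcription factor CHOP and had 716.0, 3599 and 2878 RPKM in ASA replicates 1, 2 and 3, against 166.1, 343.8 and 189.7 RPKM in DMSO replicates 1, 2 and 3. Rhov followed at 0.486 and Nxpe5 at 0.580. Over all 6 libraries Nxpe5 passed the test (limma adjusted p = 0.042). Without ASA replicate 2 Nxpe5 did not pass, with a log2 difference of 2.33 (limma adjusted p = 0.0528). ASA replicate 1 was the lowest treated library of Bin2, Ripor3, Ddit3, Rhov, Mcoln3 and Nxpe5 alike. The same held for Ipcef1, AABR07062033.1, Atf3, Itgax and Artn, so this order does not set the former apart. Among the 5 genes themselves the smallest distance was that of Nrip2 and Ipcef1 and the largest, 1.41, that of Ifitm10 and Ripor3. Genes at these distances share the ASA libraries and their depth, and a likeness over 6 libraries is a description. The distance also takes in the size of the difference between ASA and DMSO libraries, for which the 5 genes were chosen. Strongly induced genes are therefore placed near each other in advance, and nearness is not a test of a shared pattern. Without ASA replicate 2, Itgax was still nearest to Ifitm10 (0.390) and Ddit3 to Ripor3 (0.278), whereas the others changed. The nearest to Nrip2 was then the unnamed gene AABR07026032.3 (0.425), with Ipcef1 in place 5 (0.503), the nearest to Ipcef1 was the lysosomal membrane gene Cd68 (0.231), with Nrip2 in place 9, and the nearest to Bin2 was N4bp2l1 (0.516).

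**Figure D5:**
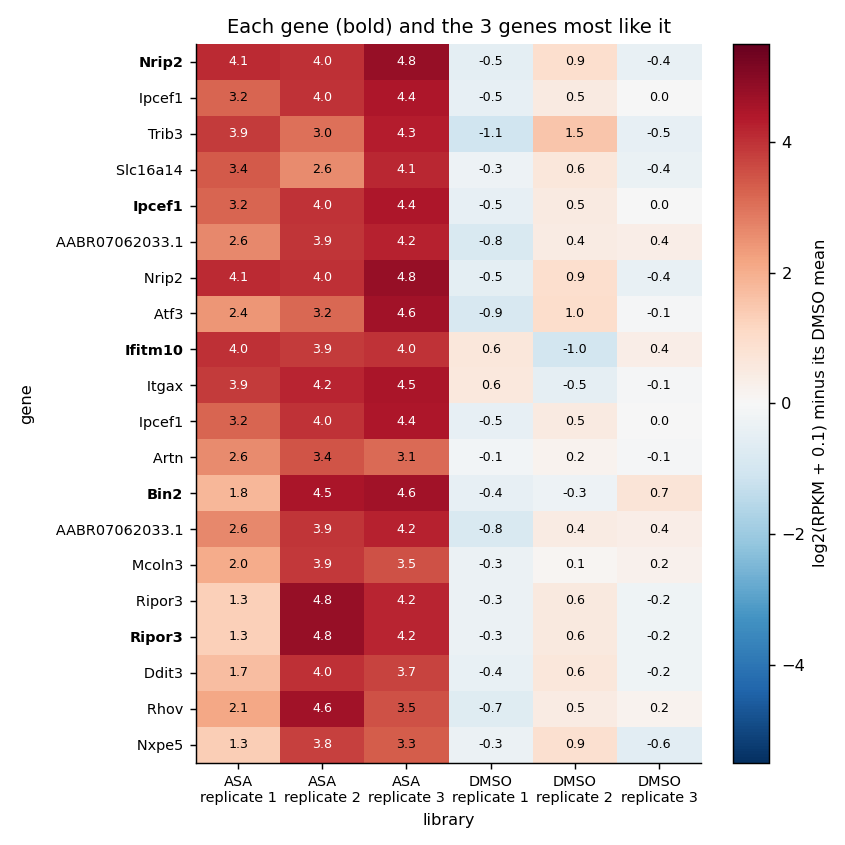
Log2(RPKM + 0.1) relative to the DMSO mean of the same gene, in the 3 ASA (left) and 3 DMSO libraries, for each of the 5 genes (bold) and the 3 genes most like it below. Nrip2, Ipcef1 and Ifitm10 lie above 3 in all ASA libraries. Bin2 and Ripor3 stand at 1.82 and 1.32 in ASA replicate 1 and above 4 in the other ASA libraries.

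Since Bin2 is best known from white blood cells, their markers were examined beside it. Of 18 macrophage and myeloid markers 3 had rows, Cd14, Fcer1g and Coro1a, and their summed level was 12.4 to 26.9 RPKM in ASA and 25.4 to 44.3 RPKM in DMSO libraries. None of the 3 passed the limma test (adjusted p = 0.165 to 0.499). The defining markers Ptprc, Spi1, Csf1r, Itgam and Itgb2 had no row used here. Of 14 lymphocyte and platelet markers Cd3e alone had a row, with 6.95 to 10.9 RPKM in ASA and 21.4 to 30.2 RPKM in DMSO libraries (limma adjusted p = 0.0209, lower with ASA). Of the 3 myeloid markers, Cd14 (10.9 against 24.2 RPKM) and Coro1a (4.29 against 5.855 RPKM) had lower means in ASA than in DMSO libraries. Fcer1g had a higher one (3.66 against 2.46 RPKM). Itgax, whose values are given above, and Cd68 are also known from macrophages and stand outside that list. Cd68 had 28.85, 210.1 and 69.35 RPKM in ASA replicates 1, 2 and 3, against 1.90, 2.999 and 2.54 RPKM in DMSO replicates 1, 2 and 3, and its ASA mean without replicate 2 was 49.1 RPKM. The part of other cell types in the level of Bin2 was not tested.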

How the data were processed

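The authors deposited log2 RPKM (reads per kilobase of exon per 1000000 reads), 1 row per exon and 1 column per library. The submitters' processing notes list edgeR 3.26.8, TopHat2 2.1.0 with Bowtie2, Trim Galore 0.4.1 with cutadapt 1.14, and the build Rnor_6.0. What counted the reads, and whether by strand, is not given in the sources used here. Per the labels, the libraries were directional and polyadenylated. Undoing the log left a constant of 0.00292 reads per 1000000; with it removed, 95.7% to 96.8% of values were whole reads within 0.02 read. Row names carry an exon number and a second number never below it, read here as the gene's exon total. Exon lengths, in bases, are as deposited and equal the row coordinates.

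Gene values are the summed reads per kilobase of listed exons. Genes averaging 0.5 RPKM or more (12502) were compared, ASA against DMSO, by two-sided moderated tests in limma 3.58.1 on log2(RPKM + 0.1), with the prior variance following the mean and Benjamini-Hochberg adjustment at 0.05; the procedure was tested on simulated data. The pseudocount understates the change of low genes. Alternatives were other pseudocounts, filters, scaling and variance models, the median exon, voom on the recovered reads and each library left out. The 5 genes and the gene lists were chosen with earlier results of these data known. Genes are named by rule: the 5, their closest relatives and neighbours, up to 4 called genes by smallest p of each list whose counts are given, the 3 genes most like each in pattern, and the highest markers. Others, such as Iqsec2, Thrb, Cd68 and the receptors and markers whose values complete a description, were chosen after their values were seen. Some results are not reported here, and the count for nuclear receptors leaves them out. Replicate numbers only name the libraries. No genome or sequence table of the files' build was used, so a planned search for promoter motifs was not made.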

Additional observations from a re-analysis of the deposited data

How the results depend on the processing

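All 5 genes were higher with ASA in each of the 15 alternatives. The choice of the genes and the lack of overlap between their groups largely fixed this in advance, so it is no test. The log2 differences of the 5 genes ranged, with each library left out, from 4.04 to 4.76 (Nrip2), 3.59 to 4.21 (Ipcef1), 3.46 to 4.27 (Ifitm10), 3.16 to 4.56 (Bin2) and 2.76 to 4.48 (Ripor3). A pseudocount of 1 gave 3.08 for Ifitm10, and library quality weights 4.93, or 30.5-fold, for Nrip2. The number of called genes ranged from 0 to 2617 with a library left out (highest without ASA replicate 2, 0 without ASA or DMSO replicate 3, and 91 and 632 without DMSO replicates 1 and 2). It was 5745 with library quality weights, the cause of which was not tested. The called genes of the lists ranged, with a library left out, from 0 to 7 for nuclear receptors, 0 to 7 for cytohesins and ARF6, 0 to 5 for the IFITM family, 0 to 3 for interferon-induced genes and 0 to 8 for BAR domain genes. With quality weights they were 12, 11, 7, 9 and 10 in that order. Interferon-induced genes numbered 2 with median-ratio scaling, and BAR domain genes 2 with the median exon. Signs turned only for relatives or neighbours that passed in none of these fits: Scaf8 (0.0194 with median-ratio scaling, 0.0543 with the median exon, and -0.1632 to 0.0791 with a library left out), Rhoc (-0.2299 to 0.3343 with a library left out, lowest without ASA replicate 1), Rhob (-1.1068 to 0.4139, highest without ASA replicate 2, and 0.1364 with quality weights), Oprm1 (-0.1747 to 0.4101, lowest without ASA replicate 2) and Amph (-0.2531 to 0.3583, lowest without ASA replicate 3). Of the 3 genes most like each, 1 (Nrip2), 0 (Ipcef1), 1 (Ifitm10), 2 (Bin2) and 2 (Ripor3) were shared without ASA replicate 2. No paired analysis was possible because the labels give no replicate numbers. Reads limit Ifitm10 in DMSO replicate 2 (21) and exon 13 of Ripor3 most.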

Other observations

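Of 13 markers of fibroblasts and endothelium, 3 had rows, and 2 of them rose, where 6.21% of all tested genes were called higher. So few rows are too few for a share to be read. Dcn, which encodes the matrix proteoglycan decorin, had 2888, 3207 and 2113 RPKM in ASA replicates 1, 2 and 3, against 1070, 1108 and 1067 RPKM in DMSO replicates 1, 2 and 3 (2.49-fold, limma adjusted p = 0.0213). All ASA libraries were above all DMSO libraries. Pdgfrb, the beta receptor of platelet-derived growth factor, had 6.17 ± 2.48 RPKM in ASA and 1.55 ± 0.770 RPKM in DMSO libraries (SD, n = 3 each, limma adjusted p = 0.0372), and Lum had a log2 difference of -0.23 (adjusted p = 0.734). The collagen genes Col1a1, Col1a2 and Col3a1 and the endothelial genes Pecam1 and Cdh5 had no row used here. None of the 10 markers of folliculostellate cells, the supporting cells of the pituitary, had one.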
